A study of Mus musculus with 6 samples.

Results

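The transcripts of 59 mouse genes of mitosis, the kinetochore and the spindle checkpoint were compared between GSK and DMSO libraries. They were picked by gene symbol from a table of 32285 genes, and all 59 were present. GSK libraries came from wild-type E10.5 neocortex, dissociated and cultured with GSK2837808A, an inhibitor of lactate dehydrogenase, the enzyme that interconverts pyruvate and lactate. DMSO libraries came from wild-type E10.5 neocortex cultured in the same way with an equal volume of DMSO. The agent was added about 2 h after plating, and cells were collected about 24 h later. About 1000 living cells that carried the surface protein CD133 were then sorted for each library, labelled as radial glial progenitors (the dividing stem cells of the early cortex), and their RNA was amplified by Smart-seq2. There were 3 libraries in each group. The dose is uncertain, because the 100 mM in the labels would be far too much for a culture medium. All libraries come from dissociated cells in culture rather than from intact tissue. No label says that replicates came from separate cultures or embryos, so p-values measure the spread between these libraries, which may be technical.

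In mitosis the duplicated chromosomes condense, attach to spindle microtubules through kinetochores built on centromeres, and are pulled apart before cytokinesis divides the cell. Entry is driven by the kinase CDK1 with its cyclins, and the spindle checkpoint holds back the anaphase-promoting complex until every kinetochore is attached. Many of these genes are transcribed mainly in G2 and M phase. Radial glial progenitors line the ventricle, where their nuclei move to the apical surface to divide, and mutations in several spindle genes, ASPM in humans among them, cause a small brain.

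The values are normalised reads, that is, reads per gene divided by a size factor per library. GSK libraries held 7187089 to 10224348 reads and DMSO libraries 7837721 to 10051625. Markers of radial glia were present in every library, but 8 of 9 were lower in GSK libraries. The 9 markers summed to 10662 to 13151 normalised reads in GSK and 20078 to 20646 in DMSO libraries. Most of the GSK sum was Vim, which was not called lower. Vim held 8061 to 10278 in GSK and 10011 to 10255 in DMSO libraries. The median log2 fold change of the 9 markers was -1.39. Markers of other cells moved as well. The 10 red blood cell markers summed to 186922 to 277396 in GSK and 2461 to 21016 in DMSO libraries, and the 7 neuron markers to 18663 to 23754 in GSK and 6002 to 12056 in DMSO libraries. The 5 intermediate progenitor markers summed to 1131 to 1545 in GSK and 615 to 870.4 in DMSO libraries. The 8 microglia markers summed to 478 to 1135 in GSK and 65.3 to 332 in DMSO libraries, and the 5 endothelial markers to 32.9 to 56.9 in GSK and 38.2 to 57.6 in DMSO libraries. The 5 mesenchyme markers summed to 9397 to 12590.0 in GSK and 11920 to 15873 in DMSO libraries. Higher calls numbered 8 of 9 tested red blood cell markers, 6 of 7 neuron, 4 of 5 intermediate progenitor and 3 of 7 tested microglia markers. None of 2 tested endothelial and 5 mesenchyme markers was higher, and 1 mesenchyme marker was lower. Hba-a2 was at 0 in 2 DMSO libraries, Cldn5 in 1 GSK and 2 DMSO libraries, and C1qb and Cdh5 in 1 DMSO library each. The part of these cells in the results was not tested.

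Of the 59 genes, 56 fell in GSK libraries, 1 rose and 2 did not pass the test (limma on log2(value + 1), Benjamini-Hochberg adjusted p below 0.05 over all 15073 genes tested). All 59 had passed the filter of a mean of at least 10 normalised reads. Among all tested genes, 19.1% were called lower and 17.0% higher. The median log2 fold change was -1.25 over the 59 genes and 0.01 over all tested genes. A fall of at least 1 on the log2 scale was found for 42 of the 59, against 6.91% of all tested genes. All GSK values lay below all DMSO values for 55 of the 59, against 24.4% of tested genes, and above them for 1, against 22.8%. Summed over the 59 genes, GSK libraries 1 to 3 held 24016, 28261 and 25383 normalised reads, against 61277, 59659 and 59171 in DMSO libraries, so the GSK mean was 43.1% of the DMSO mean. In bulk libraries fewer dividing cells and less of each transcript per cell cannot be told apart.

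**Figure D1:**
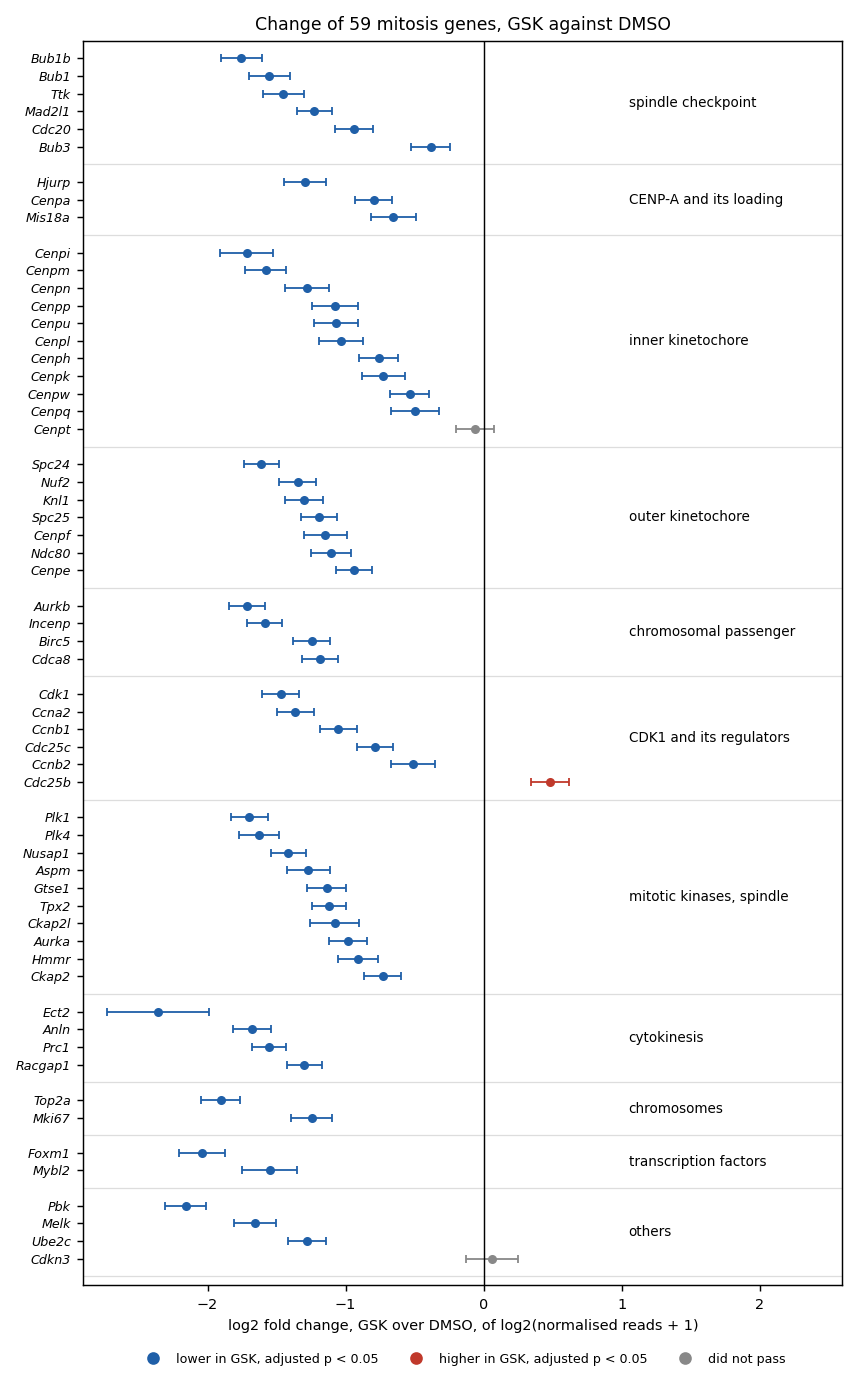
Log2 fold change of GSK over DMSO for each of the 59 genes, grouped by role. Points are limma estimates on log2(normalised reads + 1), bars are standard errors with 3 libraries per group, and colour gives the call. All but Cdc25b, Cenpt and Cdkn3 are called lower, and Ect2 has both the largest fall and the widest bar.

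The promoters were searched for short sequence elements of cell cycle genes. The cell cycle genes homology region (CHR) is the element that the MuvB subunit LIN54 binds, and CCAAT boxes bind the factor NF-Y. The CHR was searched as the letters TTTGAA alone. Other spellings of it were not searched, so a gene without TTTGAA may still hold a CHR. RefSeq promoters (GRCm38.p6), read from 250 bases before to 30 after the start, were given for 51 of the 59 genes. TTTGAA on either strand was found in promoters of 25 of these 51 genes, or 49.0%, against 13.9% of 11226 tested genes with a promoter and 19.5% of all 27025 genes in the promoter table. CCAAT on either strand was found for 37, or 72.5%, against 42.5% of tested genes and 39.7% of all. TTTGAA and CCAAT together were found for 24, or 47.1%, against 5.83% of tested genes and 7.37% of all. Of the 33 TTTGAA matches, 2 overlapped a CCAAT match. The E2F motif TTTCCCGC was found for 2 of the 51, against 2.16% of tested and 1.17% of all genes, and TTTGGCGC for 1, against 0.971% of tested and 0.537% of all genes. Genes with both TTTGAA and CCAAT had a median log2 fold change of -1.19 and the other 27 one of -1.23, so the medians were close. The promoters of 6 genes are shown because they differ in these elements and in outcome. Cdk1, Cdc20 and Ccnb2 hold both TTTGAA and CCAAT and fell, and Cdkn3 holds both and did not pass the test. Cdc25b has CCAAT without TTTGAA and rose, and Cenpt has neither in its window and did not pass. The Cenpt window lies inside the annotated gene, whose upstream end is at 105853278 on chromosome 8. Sequence before that end was not searched. Capitals mark matches to TTTGAA and CCAAT on either strand, and a match is a description of the letters, not a measured binding site.
Cdk1 (chr10:69352883-69353162, minus strand): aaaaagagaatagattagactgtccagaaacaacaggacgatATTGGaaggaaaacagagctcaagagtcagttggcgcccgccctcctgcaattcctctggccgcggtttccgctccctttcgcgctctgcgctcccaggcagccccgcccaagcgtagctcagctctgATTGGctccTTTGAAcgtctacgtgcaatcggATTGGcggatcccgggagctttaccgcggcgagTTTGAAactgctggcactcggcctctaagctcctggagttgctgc
Cdc20 (chr4:118437314-118437593, minus strand): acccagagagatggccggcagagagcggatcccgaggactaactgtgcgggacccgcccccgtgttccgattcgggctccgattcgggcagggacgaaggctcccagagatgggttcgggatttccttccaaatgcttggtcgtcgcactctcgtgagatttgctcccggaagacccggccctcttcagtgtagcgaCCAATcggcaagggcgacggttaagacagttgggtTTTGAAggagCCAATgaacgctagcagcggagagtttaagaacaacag
Ccnb2 (chr9:70421525-70421804, minus strand): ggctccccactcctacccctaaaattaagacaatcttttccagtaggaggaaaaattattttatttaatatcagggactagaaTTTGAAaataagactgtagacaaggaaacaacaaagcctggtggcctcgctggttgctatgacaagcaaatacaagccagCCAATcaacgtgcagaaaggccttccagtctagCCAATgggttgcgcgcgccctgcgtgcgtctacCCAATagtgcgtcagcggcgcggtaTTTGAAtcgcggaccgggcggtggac
Cdkn3 (chr14:46760291-46760570, plus strand): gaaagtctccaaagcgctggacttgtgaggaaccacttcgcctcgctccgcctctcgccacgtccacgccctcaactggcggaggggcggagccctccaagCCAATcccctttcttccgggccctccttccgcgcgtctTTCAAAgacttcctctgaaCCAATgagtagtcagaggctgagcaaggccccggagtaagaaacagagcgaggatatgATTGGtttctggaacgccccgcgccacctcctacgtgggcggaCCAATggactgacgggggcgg
Cdc25b (chr2:131186698-131186977, plus strand): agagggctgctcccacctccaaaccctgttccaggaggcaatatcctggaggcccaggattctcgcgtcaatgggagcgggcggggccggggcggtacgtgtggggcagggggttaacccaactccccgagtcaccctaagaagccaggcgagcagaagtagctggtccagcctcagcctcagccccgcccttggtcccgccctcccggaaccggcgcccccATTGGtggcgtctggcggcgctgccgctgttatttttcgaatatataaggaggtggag
Cenpt (chr8:105851979-105852258, minus strand): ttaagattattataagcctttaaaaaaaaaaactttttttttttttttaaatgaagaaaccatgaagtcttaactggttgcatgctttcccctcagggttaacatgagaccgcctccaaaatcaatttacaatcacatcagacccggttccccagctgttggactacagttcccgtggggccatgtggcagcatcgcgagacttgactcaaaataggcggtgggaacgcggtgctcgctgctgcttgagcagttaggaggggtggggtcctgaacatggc

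The 3 GSK libraries were lower than DMSO to a similar degree over the whole set, with medians of 0.412, 0.46 and 0.429 of the DMSO mean in libraries 1, 2 and 3. Single genes did not follow 1 order. GSK library 1 was the lowest GSK library for 34 genes, library 3 for 24 and library 2 for 1. In library 3 the lowest values included Ect2, Foxm1, Hjurp, Mki67, Aspm and Bub1b, and in library 1 they included Ccnb2, Cenpf, Ckap2l, Bub3 and Mis18a (examples chosen after their values were seen). Between GSK libraries 12 genes differed by more than 1.5-fold, and between DMSO libraries 0 of 59 did so. The share of all tested genes that did so was not computed. Over all genes with at least 10 reads in a pair of libraries, chi-square per degree of freedom was 5.11 to 12.7 in GSK. In DMSO it was 4.12 to 7.09. Whether the wider GSK spread is particular to the 59 genes was not tested. The median ratio of the highest to the lowest library was 1.30 in GSK and 1.12 in DMSO. The widest was 2.78 for Ect2 in GSK and 1.38 for Cenpq in DMSO libraries.

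**Figure D2:**
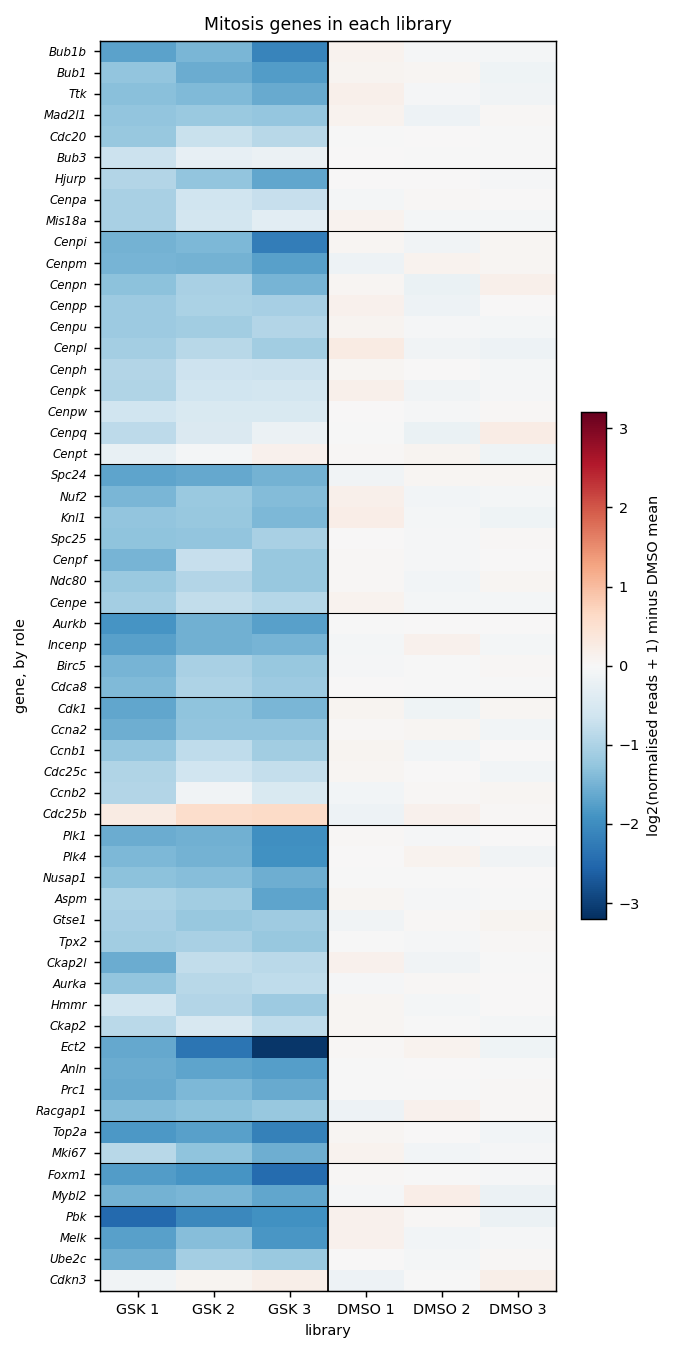
Each row is a gene, ordered by role, and each column a library. Colour gives log2(normalised reads + 1) minus the mean of the DMSO libraries. The GSK columns are blue for nearly all genes, Cdc25b is red in all 3, and rows such as Hjurp and Foxm1 darken in GSK 3 while Ccnb2 and Ckap2l are darkest in GSK 1.

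All 6 genes of the spindle checkpoint fell, with a median log2 fold change of -1.34. Bub1b encodes BUBR1, which with MAD2, BUB3 and CDC20 forms the complex that inhibits the anaphase-promoting complex (chromosome 2, 118598211 to 118641591, GRCm38). It had 343, 406 and 259 normalised reads in GSK libraries, against 1198, 1087 and 1071 in DMSO libraries. The highest GSK value was well under the lowest DMSO value (log2 fold change -1.76, standard error 0.15, limma adjusted p = 2.03e-08). The kinase genes Bub1 and Ttk, whose product MPS1 starts checkpoint signalling, had log2 fold changes of -1.55 and -1.45. Mad2l1, which encodes MAD2, had -1.23, and Cdc20, which encodes both the checkpoint's target and the activator of the anaphase-promoting complex, had -0.94. Bub3, which encodes the partner that carries BUB1 and BUBR1 to kinetochores, had 1141, 1542 and 1609 normalised reads in GSK libraries, against 1876, 1843 and 1818 in DMSO libraries. Its groups did not overlap, but GSK library 1 was far below the other two. The log2 fold change of Bub3 was -0.38 (standard error 0.14, limma adjusted p = 0.0379), and the call was lost without GSK library 1 (log2 fold change -0.23, adjusted p = 0.0683) or 2 (0.0587) and without DMSO library 1 (0.113), 2 (0.105) or 3 (0.0814), and with a constant prior in limma (0.118). Bub1b and Bub3 had the largest and the smallest change of the 6, and the ratio of Bub1b to Bub3 was 0.3, 0.263 and 0.161 in GSK libraries against 0.639, 0.59 and 0.589 in DMSO libraries. The difference of the log2 ratio was -1.38. In all, 7 such ratios are given, and since each pair was chosen after the values were seen, they are a description with no test.

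Centromeres are marked by the histone H3 variant CENP-A, and all 3 genes of its supply fell. Cenpa itself had 874, 1159.6 and 1083 normalised reads in GSK libraries, against 1719, 1849 and 1814 in DMSO libraries. The groups were far apart, and the log2 fold change was -0.80 (limma adjusted p = 9.18e-05). Hjurp encodes the chaperone that deposits CENP-A. It had 622, 499 and 376 normalised reads in GSK libraries, against 1208, 1211 and 1175 in DMSO libraries, with tight DMSO values, a wide GSK range and a log2 fold change of -1.29 (limma adjusted p = 1.5e-06). Mis18a encodes a subunit of the complex that licenses centromeres for new CENP-A. It had 193, 266 and 312 normalised reads in GSK libraries, against 430.2, 382 and 383 in DMSO libraries, again with no overlap, and a log2 fold change of -0.66 (limma adjusted p = 0.00345). Relative to Cenpa, Hjurp was low in GSK libraries 2 and 3 but not in 1. The ratio of Hjurp to Cenpa was 0.712, 0.43 and 0.347 in GSK and 0.703, 0.655 and 0.648 in DMSO libraries, which overlapped (difference of the log2 ratio -0.50).

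The inner kinetochore is the constitutive centromere-associated network, a set of proteins that sits on CENP-A chromatin throughout the cell cycle. Of its 11 genes listed, 10 fell and Cenpt did not pass, with log2 fold changes from -1.72 to -0.06. Cenpi had the largest fall, with 91.0, 96.5 and 56.2 normalised reads in GSK libraries against 275, 241 and 272 in DMSO libraries. The groups were far apart, although GSK library 3 was lower than the other two (log2 fold change -1.72, limma adjusted p = 7.25e-07). Subunits of 1 subcomplex had unlike values, though their differences were not tested. In the CENP-H, CENP-I, CENP-K and CENP-M subcomplex, the log2 fold changes were -0.76 for Cenph and -0.73 for Cenpk, beside -1.58 for Cenpm. CENP-N and CENP-L bind CENP-A nucleosomes directly as a pair, and their genes Cenpn and Cenpl had -1.28 and -1.03. Cenpp and Cenpu had -1.08 and -1.07, while Cenpq, of the same subcomplex, had -0.50. Of the 59 genes, Cenpq was the only one called lower whose groups overlapped. It had 151, 196 and 238 normalised reads in GSK libraries and 267, 233 and 322 in DMSO libraries. Its call (limma adjusted p = 0.0305) was lost without GSK library 1 (log2 fold change -0.33, adjusted p = 0.0936) or 2 (0.0648), or DMSO library 1 (0.0711) or 3 (0.155), and with a constant prior (0.108). CENP-T and CENP-W form a histone-fold dimer that recruits the outer kinetochore. Cenpt had 402, 454 and 524 normalised reads in GSK libraries and 488, 510.4 and 438 in DMSO libraries, so the groups lay over each other (log2 fold change -0.06, standard error 0.14, limma adjusted p = 0.756). Cenpw fell, with -0.53, and the ratio of Cenpt to Cenpw was 2.101, 2.129 and 2.495 in GSK libraries against 1.622, 1.773 and 1.449 in DMSO libraries (difference of the log2 ratio 0.47).

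All 7 genes of the outer kinetochore and its fibrous corona fell, between -1.61 and -0.94. The NDC80 complex, which grips the microtubule, has 4 subunits, and the largest of their falls was that of Spc24. Spc24 had 267, 278 and 300.3 normalised reads in GSK libraries, against 796, 898 and 897 in DMSO libraries. The GSK values stood within a narrow band far below the DMSO values (log2 fold change -1.61, limma adjusted p = 8.68e-09). The other subunit genes Nuf2, Spc25 and Ndc80 had -1.35, -1.20 and -1.11. Knl1, which encodes the scaffold on which BUB proteins assemble, had -1.30. Cenpf encodes a corona protein that binds microtubules and dynein regulators. It had 489, 831 and 591 normalised reads in GSK libraries, against 1412, 1335 and 1394 in DMSO libraries, with GSK library 2 standing above the other two and no overlap between the groups (log2 fold change -1.15, limma adjusted p = 9.44e-06). Cenpe encodes a kinesin that carries chromosomes to the spindle equator. It had 530.3, 651 and 598 normalised reads in GSK libraries, against 1233, 1079 and 1094 in DMSO libraries, the smallest fall of the 7 (log2 fold change -0.94, limma adjusted p = 9.89e-06).

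The chromosomal passenger complex corrects faulty attachments, and its 4 genes fell together. Aurkb, its kinase, had 307, 390.5 and 343 normalised reads in GSK libraries, against 1121, 1149 and 1138 in DMSO libraries. The DMSO libraries were close together, and every GSK library was far below them (log2 fold change -1.72, standard error 0.13, limma adjusted p = 4.14e-09). Cdca8, which encodes the subunit borealin, had 534, 724 and 638 normalised reads in GSK libraries, against 1451, 1408 and 1428 in DMSO libraries, again without overlap (log2 fold change -1.19, limma adjusted p = 7.11e-07). Incenp, the scaffold, and Birc5, which encodes survivin, had log2 fold changes of -1.59 and -1.24.

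Of the 6 genes of CDK1 and its direct regulators, 5 fell and Cdc25b rose. Cdk1 had 544, 706 and 632 normalised reads in GSK libraries, against 1826, 1572 and 1804 in DMSO libraries. The groups were far apart (log2 fold change -1.47, limma adjusted p = 4.31e-08). Ccna2, the cyclin gene of S phase and G2, had 958, 1196 and 1186 normalised reads in GSK libraries, against 2946, 2967 and 2666 in DMSO libraries. Its fall was close to that of Cdk1, with a log2 fold change of -1.37 (limma adjusted p = 1.2e-07). The B-type cyclins, which carry CDK1 through mitosis, had smaller log2 fold changes. Ccnb1 had 1103, 1477 and 1209 normalised reads in GSK libraries, against 2752, 2456 and 2600.2 in DMSO libraries (log2 fold change -1.05, limma adjusted p = 4.87e-06). Ccnb2 had 443, 776 and 606 in GSK libraries, against 799.9, 860.1 and 877 in DMSO libraries, so that GSK library 2 nearly reached the lowest DMSO library (log2 fold change -0.51, limma adjusted p = 0.0181). The Ccnb2 call was lost without DMSO library 2 (adjusted p = 0.0561) or 3 (0.0601) and with a constant prior (0.107). Without GSK library 1 its log2 fold change was -0.30 (limma adjusted p = 0.0418). The ratio of Ccnb1 to Ccnb2 was 2.49, 1.90 and 2.00 in GSK libraries against 3.44, 2.86 and 2.96 in DMSO libraries (difference of the log2 ratio -0.54). Both cyclins were named after their values were seen.

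CDC25 phosphatases remove the inhibitory phosphates of CDK1, and Cdc25b is known for a role in neural progenitors, where it acts at the start of mitosis. Cdc25b (chromosome 2, 131186949 to 131198497) had 529, 647 and 674 normalised reads in GSK libraries, against 394, 482 and 449 in DMSO libraries. It was the only one of the 59 genes for which every GSK value was above every DMSO value (log2 fold change 0.48, standard error 0.14, limma adjusted p = 0.0101). The call was lost without GSK library 2 (0.0601) or DMSO library 1 (0.0671) and with a constant prior (0.0533), while the log2 fold change stayed between 0.40 and 0.58 over all 17 alternatives. Cdc25c fell, with a log2 fold change of -0.79. The ratio of Cdc25b to Cdc25c was 1.59, 1.57 and 1.78 in GSK libraries against 0.586, 0.739 and 0.737 in DMSO libraries, so Cdc25b was the more abundant of the pair in all GSK libraries and the less abundant in all DMSO libraries by read count (difference of the log2 ratio 1.27). Per kilobase of exon, Cdc25b averaged 165 normalised reads in GSK and 118 in DMSO libraries, and Cdc25c averaged 76.1 in GSK and 131.0 in DMSO libraries.

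**Figure D3:**
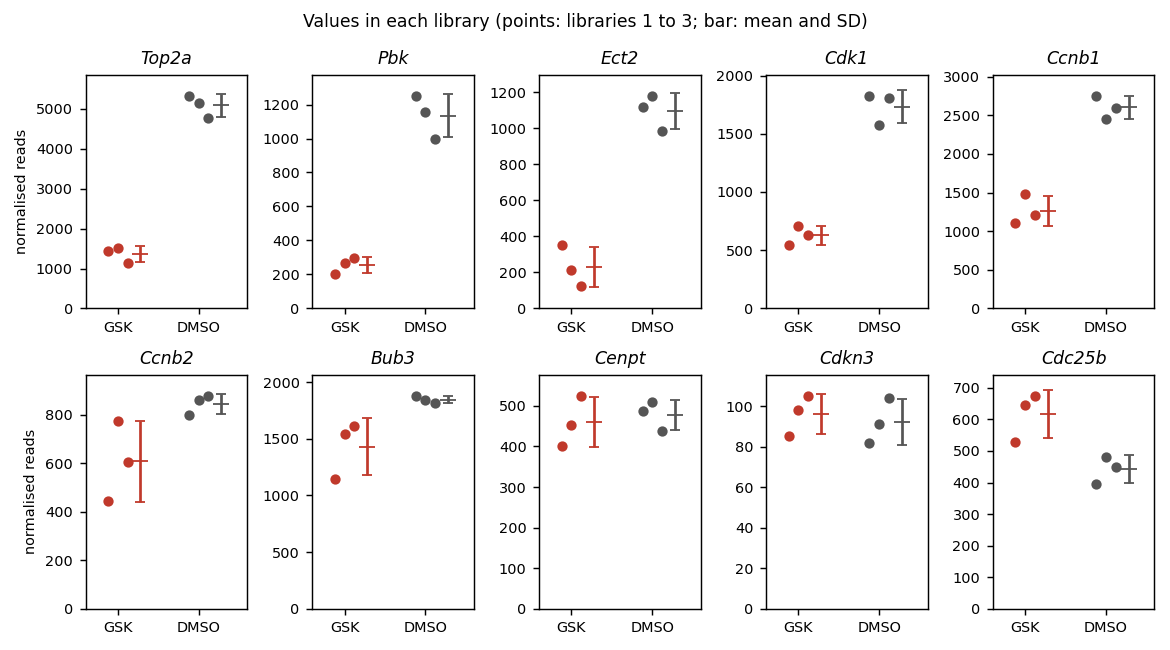
Normalised reads of 10 of the genes in each library, with GSK on the left and DMSO on the right of each panel. Points are libraries 1 to 3 and bars the mean with its SD. Top2a, Pbk, Ect2 and Cdk1 are far apart between the groups, Bub3 and Ccnb2 come close, Cenpt and Cdkn3 overlap, and Cdc25b is higher in GSK.

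All 10 genes of mitotic kinases and spindle proteins fell, between -1.70 and -0.73. Plk1, the polo kinase gene that acts from mitotic entry to cytokinesis, had 480.2, 496 and 374 normalised reads in GSK libraries, against 1481, 1415 and 1458 in DMSO libraries. The DMSO libraries lay close together and the GSK libraries far below them (log2 fold change -1.70, limma adjusted p = 6.87e-09). Plk4, the kinase that starts centriole duplication, fell by a similar amount, -1.63, and the ratio of Plk4 to Plk1 overlapped between the groups (difference of the log2 ratio 0.07). Tpx2 encodes the protein that activates Aurora A on the spindle. It had 678, 718 and 630.3 normalised reads in GSK libraries, against 1447, 1444 and 1521 in DMSO libraries, with no overlap (log2 fold change -1.12, limma adjusted p = 5.24e-07), while its kinase gene Aurka had -0.98. Ckap2, a microtubule protein gene, had 316, 401 and 327 normalised reads in GSK libraries, against 603, 571 and 554 in DMSO libraries, the smallest change of the 10 (log2 fold change -0.73, limma adjusted p = 0.000267). Its relative Ckap2l had -1.08. Aspm, which encodes a spindle pole protein needed for symmetric divisions of neural progenitors, had -1.27. The microtubule-binding genes Nusap1, Gtse1 and Hmmr had -1.42, -1.14 and -0.91.

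All 4 cytokinesis genes fell, with a median log2 fold change of -1.62. Ect2 encodes the exchange factor that activates RhoA at the cell equator (chromosome 3, 27097222 to 27153878), and Racgap1 encodes its partner in centralspindlin. Ect2 had 350.5, 214 and 126 normalised reads in GSK libraries, against 1115, 1179.7 and 985 in DMSO libraries. Even the highest GSK value was far under the DMSO range, and the log2 fold change of -2.36 was the largest fall of the 59, but its standard error of 0.37 was also the largest (limma adjusted p = 0.00423). Racgap1 had 772, 812 and 866 normalised reads in GSK libraries, against 1792, 2193 and 2067 in DMSO libraries, where the GSK values were close together (log2 fold change -1.30, limma adjusted p = 1.3e-07). Anln, the gene of the ring scaffold anillin, and Prc1, which bundles the microtubules of the central spindle, had -1.68 and -1.55.

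Top2a encodes the topoisomerase that untangles sister chromatids, and Mki67 a protein that coats mitotic chromosomes. Top2a had 1432, 1519.7 and 1139.6 normalised reads in GSK libraries, against 5323, 5144 and 4778 in DMSO libraries, which made it the most read of the 59 genes in DMSO (log2 fold change -1.91, limma adjusted p = 3.02e-09). Mki67 had 885, 671 and 557 normalised reads in GSK libraries, against 1787, 1551 and 1598 in DMSO libraries. The groups of Mki67 were apart, with GSK library 1 the nearest to DMSO (log2 fold change -1.25, limma adjusted p = 1.88e-06). Both transcription factors that drive G2 and M phase genes fell. Foxm1 had 173, 159.9 and 107 normalised reads in GSK libraries, against 615, 594 and 576 in DMSO libraries, among the 3 falls of more than 2 on the log2 scale (log2 fold change -2.04, limma adjusted p = 9.8e-09). Mybl2, which encodes B-MYB, had 44.4, 45.9 and 40.3 normalised reads in GSK libraries, against 126, 151 and 113 in DMSO libraries, a low level with no overlap (log2 fold change -1.55, limma adjusted p = 4.53e-06).

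Of the last 4 genes, Pbk, Melk and Ube2c fell and Cdkn3 did not pass. Pbk encodes a mitotic kinase also called TOPK. It had 201, 270.1 and 295 normalised reads in GSK libraries, against 1251, 1154 and 999.9 in DMSO libraries, so every GSK library was far below the lowest DMSO library (log2 fold change -2.16, limma adjusted p = 1.31e-09). Melk, a kinase gene of embryonic progenitors, had -1.66. Ube2c, the ubiquitin-conjugating enzyme gene of the anaphase-promoting complex, had 901, 1265 and 1174 normalised reads in GSK libraries, against 2691, 2587 and 2767 in DMSO libraries, without overlap (log2 fold change -1.28, limma adjusted p = 5.13e-07). Cdkn3 encodes a phosphatase that acts on the activating phosphate of CDK proteins. It had 85.3, 98.3 and 105 normalised reads in GSK libraries and 81.8, 91.1 and 104 in DMSO libraries, which lay over each other (log2 fold change 0.06, standard error 0.19, limma adjusted p = 0.829). The ratio of Cdkn3 to Cdk1 was 0.157, 0.139 and 0.166 in GSK libraries against 0.045, 0.058 and 0.058 in DMSO libraries (difference of the log2 ratio 1.53).

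Levels of different genes were compared per kilobase of exon. The length counts all annotated exons of a gene, merged over its transcripts, so the order depends on the annotation. In GSK libraries Cdc20 was first, with a mean of 509 normalised reads per kilobase, before Ube2c (428), Ccnb2 (397), Ccnb1 (299) and Ccna2 (273). In DMSO libraries Ube2c was first with 1031, followed by Cdc20 (965), Ccna2 (700.4), Plk1 (660.0) and Pbk (634). Ccnb2 thus ranked 3 in GSK and 8 in DMSO libraries, and Pbk ranked 14 in GSK and 5 in DMSO libraries. Some reads may belong to neighbours, because Smart-seq2 does not mark strand and 26.7% of the exonic bases of Cenpu, 22.8% of Ube2c, 12.7% of Cdc25c, 12.5% of Ccna2, 12.3% of Cenpp and 11.1% of Prc1 overlap an exon of a gene on the opposite strand.

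The fall of the mitosis genes was set against the radial glial markers within each library, since those markers fell too. The summed reads of the 59 genes per read of Nes, which encodes the progenitor filament nestin, were 41.1, 41.8 and 39.7 in GSK libraries and 38.5, 38.6 and 43.8 in DMSO libraries, which overlapped. Per read of Pax6, a transcription factor gene of cortical progenitors, they were 56.0, 58.4 and 59.8 in GSK libraries and 52.1, 47.3 and 55.8 in DMSO libraries, with the GSK values just above. Per read of Prom1, the gene of the sorted protein CD133, they were 34.7, 49.0 and 50.6 in GSK libraries and 50.1, 48.7 and 53.8 in DMSO libraries, with GSK library 1 the lowest. Relative to Sox2 and Hes1 the groups overlapped as well. Per read of Vim, a filament gene that did not pass the test, the sums were 2.98, 2.75 and 2.51 in GSK libraries and 6.12, 5.82 and 5.85 in DMSO libraries. Per read of Fabp7, which fell more than any of the 59 genes, they were 148, 127 and 93.4 in GSK libraries and 18.6, 22.1 and 20.5 in DMSO libraries, and Slc1a3 and Hes5 also fell more than the sum. No test was made on these sums.

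Of 99 other genes of mitosis in 6 lists, 60 fell and 3 rose, and the median log2 fold change was -0.50. Among all tested genes 19.1% were called lower and 17.0% higher, which is also the background for each of the 6 lists. Of 24 other kinetochore genes 18 fell and none rose. Kntc1, which encodes the ROD subunit of the complex that brings dynein and MAD proteins to kinetochores, had -1.82, the shugoshin gene Sgo2a -1.37 and Ska3, of the SKA complex that tracks microtubules, -1.23. Of 26 other spindle and centrosome genes 20 fell and 1 rose. Tacc3, Spag5, Bora and Gpsm2 had -1.32, -1.25, -1.13 and -1.25, the last encoding LGN, which orients the spindle of dividing progenitors. Haus7, of the augmin complex that nucleates microtubules from microtubules, rose with 0.47 (limma adjusted p = 0.00937). Its values were 463, 513 and 590.0 normalised reads in GSK libraries, against 378, 368 and 378 in DMSO libraries, with no overlap. No other augmin gene was called higher. Haus3, Haus4, Haus5 and Haus6 fell, with -0.40, -0.70, -1.15 and -1.21, and Haus1, Haus2 and Haus8 did not pass.

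Of 9 other regulators of mitotic entry 8 fell, both activators and brakes. Wee1 and Pkmyt1 encode the kinases that hold CDK1 inactive, the opposite of CDC25, and had -1.26 and -0.98. Ccnf, which encodes an F-box cyclin, and Cks2, which encodes a small CDK subunit, had -1.30 and -0.92. Of 19 genes of the anaphase-promoting complex and its partners, 7 were lower and none higher, against 19.1% and 17.0% of all tested genes. The median of this list was -0.25. Its largest falls were in Espl1, the gene of separase, which cuts cohesin at anaphase (-2.09), and in Fbxo5, the gene of the inhibitor EMI1 (-1.54), neither of which is a core subunit, whereas the core genes Anapc1 and Anapc15 had -0.59 and -0.64. Of 9 genes of MuvB, the pocket proteins and their partners 5 fell and none rose. Tfdp1, Rbl1 and Rbbp4 had -0.96, -0.98 and -0.45. Lin54, whose product binds the CHR element, had 99.0, 68.9 and 64.7 normalised reads in GSK libraries, against 144, 116 and 105 in DMSO libraries. The groups of Lin54 did not overlap (log2 fold change -0.66, limma adjusted p = 0.0155), and its call was lost without GSK library 2 (0.0654) or 3 (0.0561) or DMSO library 1 (0.0939).

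Abscission is the final cut, made by membrane-severing ESCRT proteins that cells also use elsewhere. Of 12 abscission genes 2 fell and 2 rose, close to the shares of all tested genes, and the median log2 fold change was 0.12. Cep55 and Cit, which act at the midbody between daughter cells, had -1.03 and -0.62. Chmp4c, an ESCRT gene, had 104, 87.3 and 102 normalised reads in GSK libraries, against 65.9, 69.6 and 55.8 in DMSO libraries, and rose with 0.61 (limma adjusted p = 0.0195). Ist1, another, had 1515, 1754 and 1757 in GSK libraries, against 1283, 1379.9 and 1259 in DMSO libraries, and rose with 0.36 (limma adjusted p = 0.0332). Neither pair of groups overlapped. Chmp4c lost its call without GSK library 3 (0.0563) or DMSO library 3 (0.0699). Ist1 lost its call without GSK library 2 (0.154) or 3 (0.0739) and without DMSO library 1 (0.107), 2 (0.0696) or 3 (0.106), with no filter on low values (0.0535) and with a constant prior (0.0798). The number of the 99 genes called higher, 3 with all libraries, was 9 without GSK library 1 and 1 without GSK library 3.

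**Figure D4:**
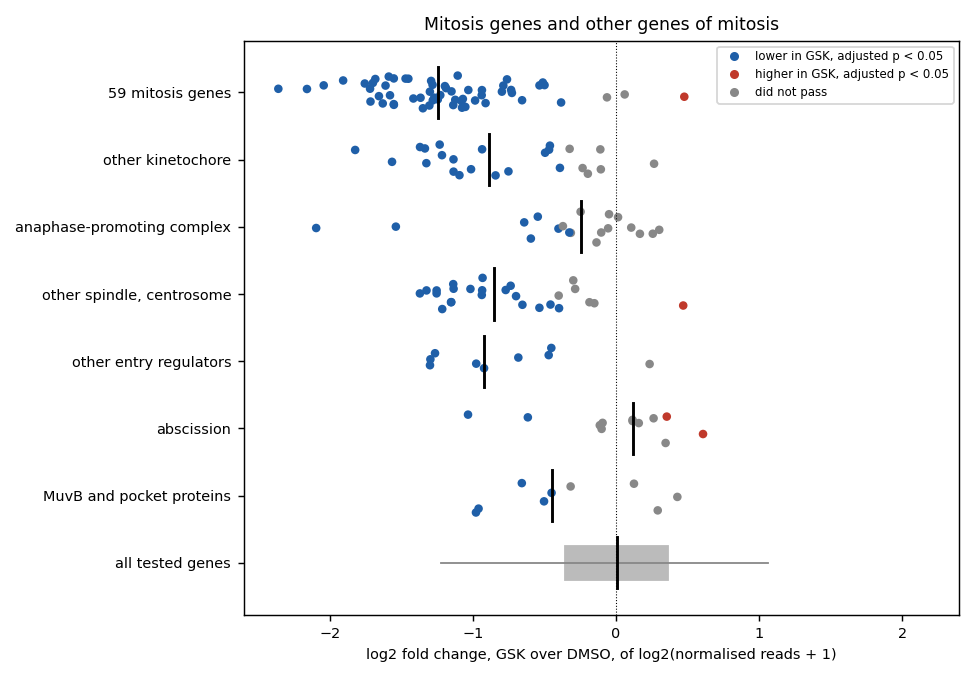
Log2 fold change of GSK over DMSO for the 59 genes and for the 6 lists of other mitosis genes. Each point is a gene, coloured by its call, and the black line is the median. For all tested genes the box spans the middle 50% and the line the middle 90%. The 59 genes lie left of 0 apart from Cdc25b and Cdkn3, while abscission genes lie on both sides of 0.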

How the data were processed

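The table deposited by the authors holds signal values, normalised read counts of 32285 genes in 6 libraries, which recur for each transcript, so a single row was kept for each gene. The submitters' processing notes name STAR, DESeq, GRCm38 and mm10 without their roles. Which counter, annotation and strand setting the authors used is not given in the sources here. Dividing by each library's smallest value gave whole reads for 100% of nonzero values (tolerance 0.01); with edgeR on these, all genes called lower numbered 2996 and all genes called higher 2500. Libraries of a group differed by more than sampling noise (chi-square per degree of freedom 4.12 to 12.7).

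limma 3.58.1 (R 4.3.3, trended, robust prior) was run on log2(value + 1) for 15073 genes with a mean of at least 10, with Benjamini-Hochberg adjustment at 0.05 (checked on simulated counts). This scale understates the change of low genes. Alternatives (17) were other pseudocounts, filters, scalings and priors, a replicate block, each library left out, and edgeR 4.0.16 and DESeq2 1.42.0 on recovered reads. Equal totals without globin and rRNA-overlapping genes were added after seeing the data. Coordinates and exon lengths, merged over all transcripts of a gene, came from GENCODE vM21.

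Members and lists were chosen with earlier results of these data known. In each role, values per library are given for the member of highest mean, of largest and of smallest change, and for those that did not pass. Values of Cenpq, Ccnb1 and Ccnb2 are also given outside this choice, after their values were seen. The other lists name up to 4 called genes by smallest p, plus called genes against the majority. The other augmin genes are also named beside Haus7. One gene that this rule names is not reported here.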

Additional observations from a re-analysis of the deposited data

How the results depend on the processing

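Over the 17 alternatives, 53 to 56 of the 59 genes were called lower, and 53 genes kept their side of the threshold and their direction under each that tested them. The exceptions were Bub3, Cenpq, Ccnb2 and Cdc25b, which lost their calls under some, and Cenpt and Cdkn3. Cdkn3, which did not pass under any of the 16 that tested it, had log2 fold changes of -0.00797 with equal library totals and -0.0219 (without DMSO library 1) to 0.1501 (without DMSO library 3) with a library left out, where it was -0.00421 without GSK library 3. Cenpt had -0.1611 (without GSK library 3) to 0.0305 (without GSK library 1). With a constant prior 0 genes were called higher (Cdc25b, adjusted p = 0.0533) and 53 lower, by limma, and leaving out a library gave 0 to 1 higher. The median log2 fold change was -1.32 with equal library totals and -1.30 to -1.17 with a library left out. edgeR and DESeq2 each called 56 lower and 1 higher. Deviations of same-numbered libraries from their group means were hardly correlated (-0.024 to 0.053), and GSK library 1 was closest to DMSO library 2, at 0.072. With means of only 3 libraries, these values cannot tell whether same-numbered libraries shared a culture. With a replicate block 56 of the 59 genes were called lower, and of the 99 other mitosis genes 5 were higher. Leaving out a library gave 1 to 9 higher among these 99, and equal totals without globin and rRNA-overlapping genes, a scaling chosen after seeing the data, gave 6, with 56 of the 59 lower. The causes were not tested. Mybl2 and Cdkn3 were not tested with a mean of at least 100. Depth limits precision most for Mybl2, the lowest of the 59 genes, at 40.3 to 45.9 normalised reads in GSK libraries.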
